A study of Arabidopsis thaliana with 8 samples.

Results

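The genes strongly raised in *janus-2* were 158 of the 28775 loci counted in mRNA libraries from inflorescences. They were chosen by their CPM, the count of a gene scaled to a library total of 1000000 gene counts. Each had at least 5 CPM in both *janus-2* libraries, and its mean *janus-2* CPM plus 0.1 was at least 8 times its mean Col-0 CPM plus 0.1. These loci were 0.549% of all loci. Because the 4 mRNA libraries themselves chose the genes, the levels and the fold of each gene (the ratio just defined) are a description and carry no test. CPM is a share of the gene counts of a library and is not divided by gene length, so levels were compared between genotypes and not between genes.

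The *janus-2* plants carried a hypomorphic CRISPR/CAS9 allele of *JANUS*, a small deletion in the seventh exon, in a line backcrossed to Col-0, and were small, sterile and had serrated leaves. The controls were Col-0, the wild-type accession that is also the parent of the mutant. Both genotypes were grown at the same temperature and day length, and mRNA and small RNA were each sequenced from 2 biological replicates per genotype. The labels give the mutant as janus with no allele number, and these libraries came from 1 mutant allele.

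JANUS is the plant counterpart of a subunit of the SF3b splicing complex. Several families among the raised genes are well known from other settings. Heat shock proteins are chaperones that keep other proteins folded. Xyloglucan endotransglucosylase/hydrolases cut and rejoin the xyloglucan chains that tie cellulose fibres together in the cell wall. Alternative oxidase passes electrons from ubiquinone to oxygen when the cytochrome pathway of mitochondria is limited. Genes of the low sulphur response release sulphur from stored compounds and slow the synthesis of glucosinolates, the sulphur-rich defence compounds of the cabbage family.

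The mRNA libraries held 63578320 and 58966170 gene counts in *janus-2*, against 56360882 and 65578130 in Col-0, and a count of 3 was worth between 0.0457 and 0.0532 CPM. *JANUS* itself had 1158 and 1141 counts in *janus-2*, against 3107 and 3579 in Col-0. By edgeR's quasi-likelihood test over 22990 genes, 4258 genes (18.5%) were higher in *janus-2* by at least 1.5-fold with an adjusted p no larger than 0.05, and 6244 genes (27.2%) were lower. The number of raised genes, 158, equals 3.71% of the number of higher genes. This is given for scale only, since the rule chose the raised genes from these same libraries. Among marker lists, all 15 pollen genes were lower in *janus-2* (summed level 58.5 and 61.1 CPM, against 7285 and 7289 CPM in Col-0), as were all 15 tapetum genes (137 and 135 CPM, against 1126 and 1118 CPM). Of 11 flower organ identity genes, 0 were higher and 4 were lower in *janus-2*, with summed levels of 880 and 877 CPM against 1218 and 1216 CPM in Col-0, and none of the 11 was at or under 3 counts in both libraries of either genotype. Of 6 leaf photosynthesis genes, 0 were called. Of 20 root genes, 13 were at or under 3 counts in both libraries of *janus-2* and 13 in both of Col-0, with summed levels of 20.3 and 23.3 CPM in *janus-2* and 24 and 26 CPM in Col-0. The raised gene LRX2 is on this list, and the rest of the list summed to 5.69 and 5.8 CPM in *janus-2*, against 23.9 and 25.9 CPM in Col-0. Of the 5 root genes tested outside the raised set, 2 were higher and 3 were lower. The part of these lists in the raised set was not tested, and in whole inflorescences more cells of a type and more RNA per cell cannot be told apart.

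The raised genes took 1.31% and 1.32% of the gene counts in the *janus-2* libraries, against 0.103% and 0.103% in the Col-0 libraries. Their median level was 24 CPM in *janus-2*, against 1.74 CPM in Col-0. The fold ran from 8.04 to 196 with a median of 13.6. It was under 16 in 95 genes, between 16 and 32 in 39, between 32 and 64 in 16, and at least 64 in 8. In *janus-2* the mean was under 10 CPM for 30 genes, between 10 and 50 CPM for 76, between 50 and 100 CPM for 25 and at least 100 CPM for 27. In Col-0, 56 genes had a mean under 1 CPM. The replicates lay close together: the ratio of *janus-2* replicate 1 to replicate 2 was between 0.829 and 1.26, and 156 genes (98.7%) differed by less than 20% between the *janus-2* replicates, as did 99.0% of all 15689 genes with at least 5 CPM in both.

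**Figure D1:**
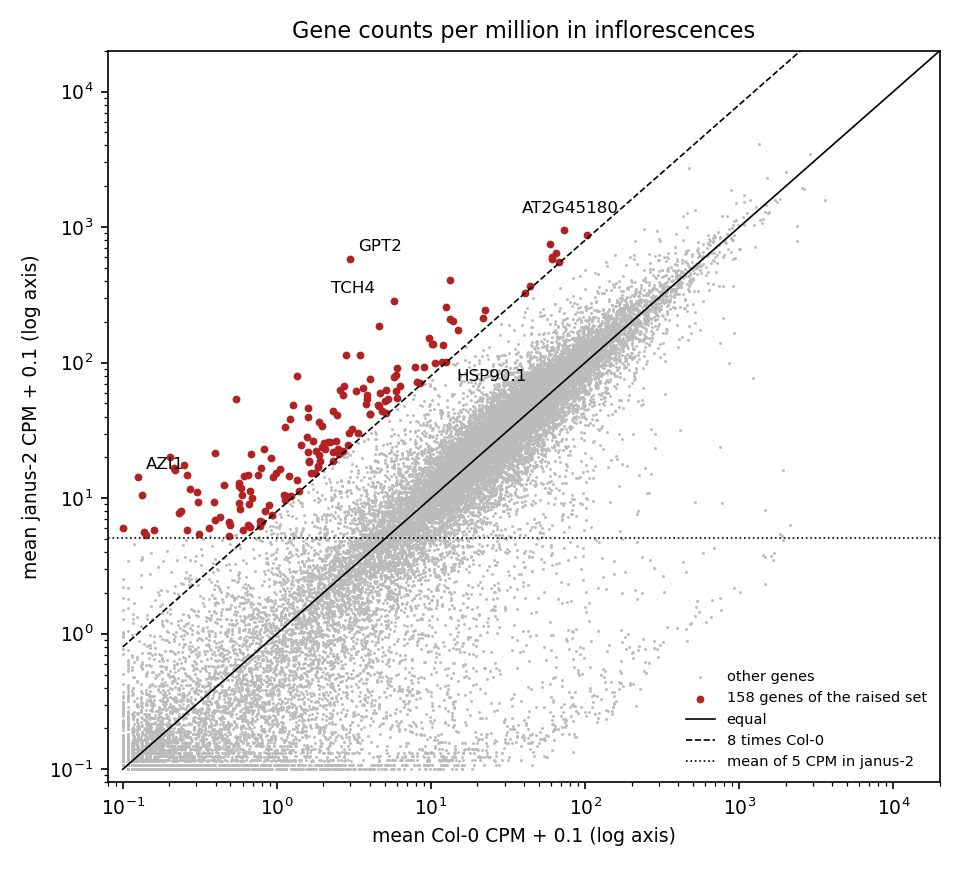
Mean level of every gene with a count, as CPM + 0.1, in *janus-2* (vertical, log axis) against Col-0 (horizontal, log axis). The 158 raised genes (red) lie above the dashed line at 8 times Col-0 and the dotted line at 5 CPM, with GPT2 farthest from the diagonal at a fold of 196 and HSP90.1 nearest the dashed line at 8.04.

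Near the 2 limits of the rule the values run on without a gap. HSP90.1, KAT3 and TCH3 were just inside the fold at 8.04, 8.07 and 8.09, while AT3G21770, AGP7 and ChiC stayed just outside at 7.87, 7.84 and 7.84. The lower *janus-2* library had 5.05 CPM for AT5G41761, 5.17 CPM for AT4G02170 and 5.31 CPM for AHP4, which were inside, and 4.95 CPM for ABR1, 4.85 CPM for KTI1 and 4.80 CPM for RAP2.6, which were outside in spite of folds of 9.87, 9.96 and 15.

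With 0.1 CPM added to both means, the largest fold belonged to GPT2, the glucose-6-phosphate/phosphate translocator 2 of the plastid envelope, with 581 and 583 CPM in *janus-2*, against 2.7 and 3.05 CPM in Col-0 and a fold of 196. AZI1 (azelaic acid induced 1), a lipid transfer protein-like gene known from the priming of systemic defence, had 12.9 and 15.5 CPM in *janus-2*, against 0.0355 and 0.0152 CPM in Col-0 and a fold of 114. Its Col-0 libraries held 2 and 1 counts, so its ratio of 575 from the summed counts has a 95% counting interval of 196 to 2790. LTI65, also called RD29B, a marker of abscisic acid (ABA) and desiccation, was seen 2 times in each Col-0 library and had 10.5 and 10.3 CPM in *janus-2*, against 0.0355 and 0.0305 CPM in Col-0 and a fold of 79.1. The ratio of its summed counts was 318 (counting interval 124 to 1168). With nothing added, the ratio of the mean CPM was 203 for GPT2, below 559 for AZI1 and 316 for LTI65, and both counting intervals include 203. TH8, a thioredoxin of the h type, had 17.3 and 15.8 CPM in *janus-2*, against 0.124 and 0.107 CPM in Col-0 and a fold of 77.3. LRX2, a leucine-rich repeat extensin of the cell wall known from root hairs, had 14.6 and 17.5 CPM in *janus-2*, against 0.142 and 0.0915 CPM in Col-0 and a fold of 74.4. It is the 1 raised gene on the root marker list. The other 5 of the 10 largest folds belonged to loci that the annotation lists by identifier alone: AT1G62510 (fold 101), AT3G44970 (97.9), AT1G27020 (70.5), AT1G76210 (60.1) and AT5G51440 (59.2). AT1G76210 had 394 and 332 counts in *janus-2* and 0 in both Col-0 libraries, which makes it at least 119-fold higher against a floor of 3 counts per library. The counting intervals leave out the spread between libraries.

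By their share of *janus-2* reads, the raised genes were led by AT2G45180, an identifier with no name in the annotation, with 941 and 972 CPM in *janus-2*, against 74.3 and 70.6 CPM in Col-0. GASA14 (AT5G14920), a member of the gibberellin-stimulated GASA family, had 845 and 902 CPM in *janus-2*, against 104 and 103 CPM in Col-0. ESM1, the epithiospecifier modifier that turns glucosinolate breakdown from nitriles towards isothiocyanates, had 736 and 776 CPM in *janus-2*, against 57.7 and 59.7 CPM in Col-0. AT2G16660 and AT1G69840, both without a name in the annotation, had 649.6 and 646 CPM in *janus-2*, against 63.4 and 65 CPM in Col-0 and 583 and 586 CPM in *janus-2*, against 60.9 and 61.7 CPM in Col-0. These 5 had folds between 8.44 and 13.2. ABCC3, given with the transporters, stood between AT2G16660 and AT1G69840, and GPT2, with the largest fold, came next after AT1G69840. The 10 genes with the most *janus-2* reads took 48.0% and 48.5% of the counts on raised genes in *janus-2*, against 53.4% and 53.4% in Col-0.

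By their names in the annotation, 87 of the 158 genes could be placed in 16 groups, and a gene could stand in more than 1. The other 71 could not, among them the 65 genes with an identifier only. The fold of those 71 ran from 8.09 to 101 with a median of 13.6. The levels below are given in every library, and in each case both *janus-2* libraries lay above both Col-0 libraries. The lowest *janus-2* value was at least 6.11 times the highest Col-0 value, a gap that the rule itself makes likely.

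**Figure D2:**
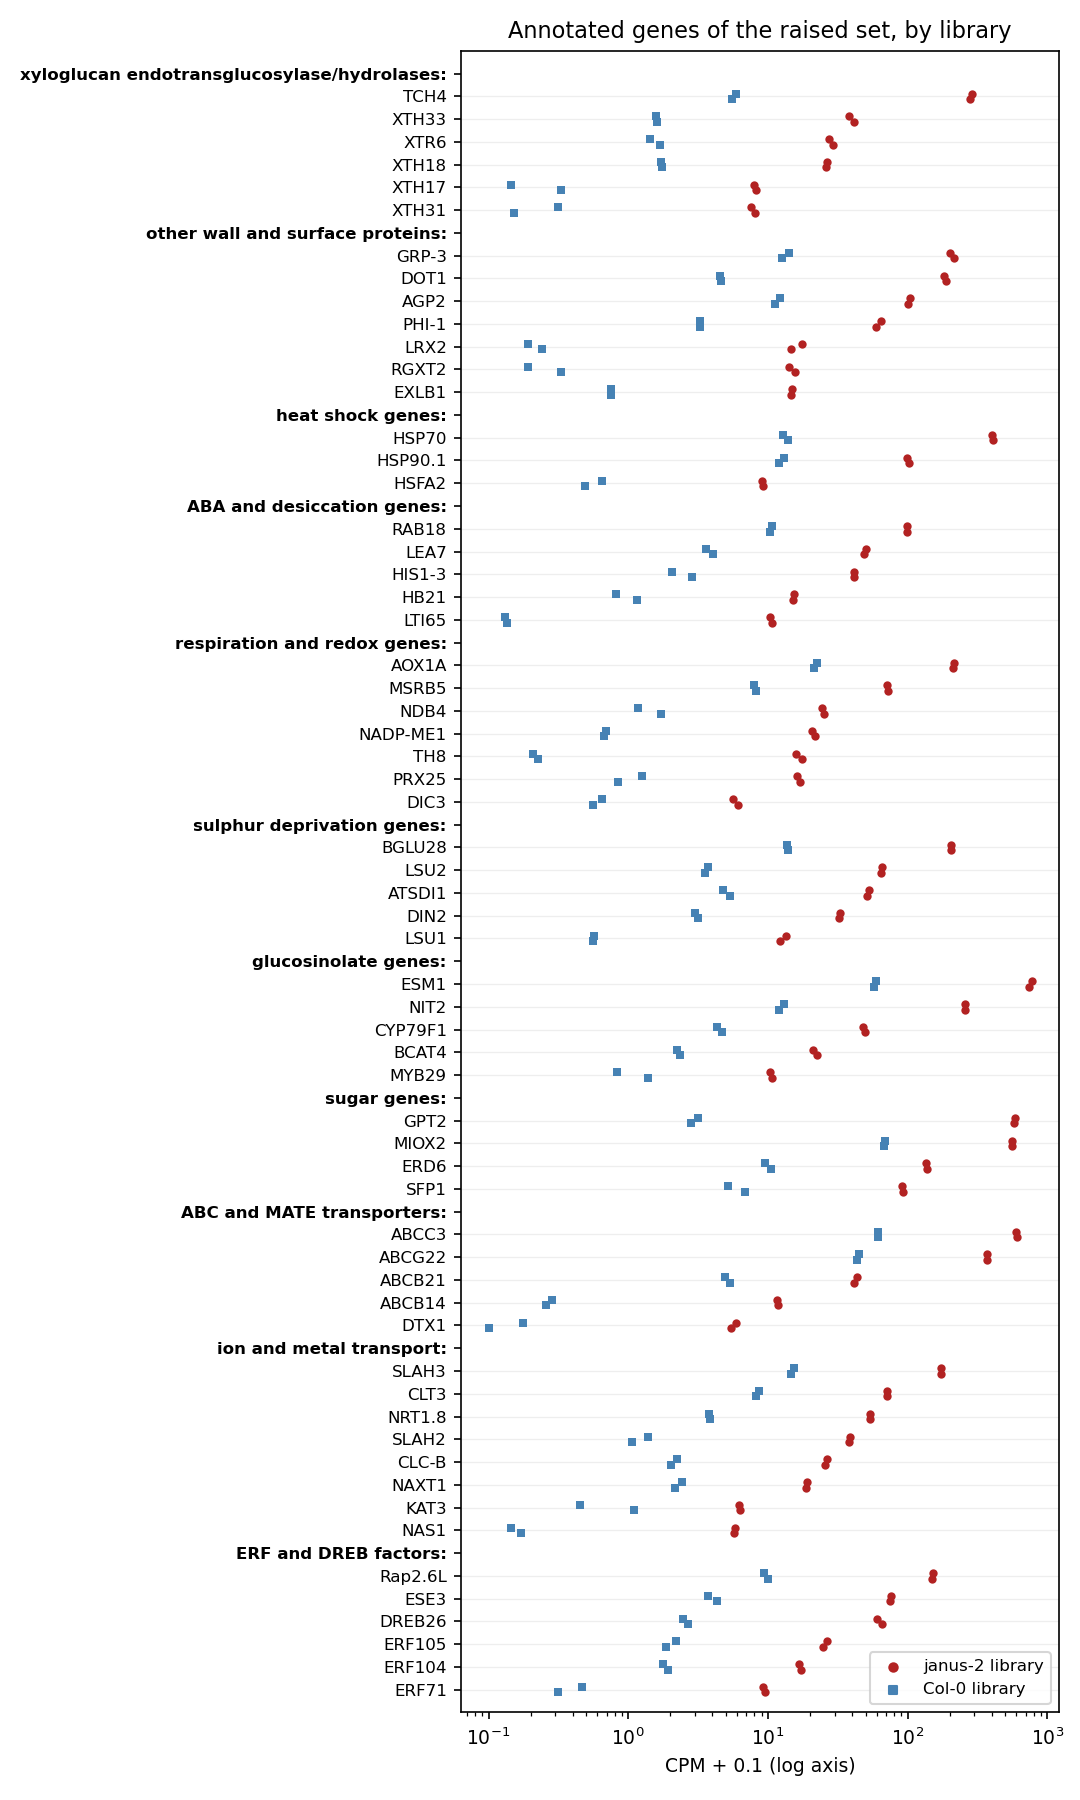
Level of the raised genes in 11 of the 16 groups, as CPM + 0.1 on a log axis, with 1 red circle for each *janus-2* library and 1 blue square for each Col-0 library. The 2 libraries of a genotype nearly coincide, while the genotypes lie at least 6.11 times apart in CPM, a gap that the rule makes likely. TCH4 and GPT2 show the widest separation among genes with over 100 CPM in *janus-2*.

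The set held 6 genes encoding xyloglucan endotransglucosylase/hydrolases. TCH4 (XTH22), found first as a gene induced by touch, had 279 and 287 CPM in *janus-2*, against 5.43 and 5.84 CPM in Col-0 and the largest fold of the family at 49.3. XTH33 had 41.2 and 38 CPM in *janus-2*, against 1.51 and 1.48 CPM in Col-0, and XTR6 (XTH23) had 29.3 and 27.3 CPM in *janus-2*, against 1.6 and 1.34 CPM in Col-0. XTH18 had 26.1 and 26.6 CPM in *janus-2*, against 1.63 and 1.62 CPM in Col-0. These 4 genes had at least 26.1 CPM in each *janus-2* library and at most 5.84 CPM in each Col-0 library. XTH17 and XTH31 had at most 0.231 CPM in a Col-0 library. XTH17 had 8.12 and 7.82 CPM in *janus-2*, against 0.231 and 0.0457 CPM in Col-0, and XTH31 had 7.97 and 7.46 CPM in *janus-2*, against 0.0532 and 0.213 CPM in Col-0. Together the family members in the set summed to 392 and 394 CPM in *janus-2*, against 10.5 and 10.5 CPM in Col-0.

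Other proteins of the wall and the cell surface formed a second group of 7, LRX2 included. GRP-3, a glycine-rich protein that binds wall-associated kinase 1, had 214 and 202 CPM in *janus-2*, against 12.5 and 14 CPM in Col-0. DOT1, known from leaf vein patterning, had 189 and 181 CPM in *janus-2*, against 4.49 and 4.45 CPM in Col-0, the larger fold of the 2 at 40.5. AGP2, an arabinogalactan protein, had 100.5 and 103 CPM in *janus-2*, against 11.2 and 12.1 CPM in Col-0, and PHI-1, an exordium-like gene, had 59.5 and 63.9 CPM in *janus-2*, against 3.16 and 3.19 CPM in Col-0. EXLB1, an expansin-like gene, had 14.5 and 14.8 CPM in *janus-2*, against 0.656 and 0.656 CPM in Col-0. RGXT2, a xylosyltransferase of the pectin rhamnogalacturonan II, had 15.6 and 14.1 CPM in *janus-2*, against 0.231 and 0.0915 CPM in Col-0 and a fold of 57.2. Next to these, TCH3, a calmodulin-like gene that like TCH4 was found through touch, had 321 and 336 CPM in *janus-2*, against 39.8 and 41.3 CPM in Col-0, a fold of 8.09 that is near the limit of the rule.

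Among heat shock genes, HSP70 (AT3G12580), a cytosolic chaperone, had 406 and 403 CPM in *janus-2*, against 13.8 and 12.7 CPM in Col-0. HSP90.1, the heat-inducible member of the cytosolic HSP90 family, had 103 and 98.2 CPM in *janus-2*, against 11.9 and 12.9 CPM in Col-0. HSFA2, the transcription factor that prolongs the heat response, had 9.09 and 8.99 CPM in *janus-2*, against 0.390 and 0.549 CPM in Col-0. AT5G51440, which stands on the heat shock list by its identifier, had 78.3 and 80.5 CPM in *janus-2*, against 1.31 and 1.17 CPM in Col-0. The 4 genes covered folds from 8.04 to 59.2.

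The ABA and desiccation group held 5 genes with a name. RAB18, a dehydrin, had 99.4 and 98.6 CPM in *janus-2*, against 10.3 and 10.6 CPM in Col-0. LEA7, a late embryogenesis abundant protein, had 48.4 and 49.9 CPM in *janus-2*, against 3.94 and 3.49 CPM in Col-0, and LTI65 is given above. HIS1-3, a linker histone induced by drought, had 41.1 and 41.4 CPM in *janus-2*, against 2.75 and 1.97 CPM in Col-0. HB21, a homeodomain-leucine zipper factor known from ABA accumulation in axillary buds, had 15.1 and 15.3 CPM in *janus-2*, against 1.05 and 0.717 CPM in Col-0. AT3G17520, which stands on the desiccation list by its identifier, had 11.1 and 11.1 CPM in *janus-2*, against 0.177 and 0.229 CPM in Col-0. Of these, AT3G17520 and LTI65 had at most 0.229 CPM in a Col-0 library, whereas RAB18 had at least 10.3 CPM in both.

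In the group of respiration and redox genes, AOX1A, the main stress-induced alternative oxidase, had 211 and 214 CPM in *janus-2*, against 21.2 and 22.3 CPM in Col-0. NDB4, an external NAD(P)H dehydrogenase of mitochondria, had 25 and 24.2 CPM in *janus-2*, against 1.61 and 1.07 CPM in Col-0. DIC3, a mitochondrial dicarboxylate carrier, had 6.01 and 5.49 CPM in *janus-2*, against 0.461 and 0.549 CPM in Col-0. All 3 proteins work in mitochondria, and their folds were 9.74, 17.2 and 9.67. NADP-ME1, a malic enzyme, had 21.8 and 20.6 CPM in *janus-2*, against 0.568 and 0.595 CPM in Col-0. MSRB5, which repairs oxidised methionine, had 72.7 and 70.6 CPM in *janus-2*, against 8.14 and 7.85 CPM in Col-0, and the peroxidase gene PRX25 (AT2G41480) had 16.8 and 16 CPM in *janus-2*, against 0.745 and 1.16 CPM in Col-0. NADP-ME1 had a fold of 31.3, against 8.86 for MSRB5.

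Low sulphur response genes made up a group of 5. BGLU28, a β-glucosidase thought to release sulphur from glucosinolates, had 203 and 204 CPM in *janus-2*, against 13.9 and 13.5 CPM in Col-0. LSU1 and LSU2 (response to low sulfur) had 12.2 and 13.4 CPM in *janus-2*, against 0.461 and 0.473 CPM in Col-0 and 64.5 and 65.1 CPM in *janus-2*, against 3.42 and 3.61 CPM in Col-0. ATSDI1 (sulphur deficiency-induced 1), a repressor of glucosinolate synthesis, had 50.7 and 53.2 CPM in *janus-2*, against 5.23 and 4.7 CPM in Col-0. DIN2 (BGLU30), a β-glucosidase gene induced by darkness as well as by low sulphur, had 32 and 32.5 CPM in *janus-2*, against 3.07 and 2.88 CPM in Col-0. Their folds lay between 10.3 and 22.7.

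Glucosinolate genes were also in the set. CYP79F1, which turns chain-elongated methionine into aldoximes, had 49.1 and 47.9 CPM in *janus-2*, against 4.6 and 4.22 CPM in Col-0. BCAT4, the aminotransferase that opens methionine chain elongation, had 22.3 and 21 CPM in *janus-2*, against 2.25 and 2.15 CPM in Col-0. MYB29, an activator of the aliphatic glucosinolate genes, had 10.6 and 10.3 CPM in *janus-2*, against 1.3 and 0.732 CPM in Col-0. NIT2, a nitrilase, had 256 and 259 CPM in *janus-2*, against 12 and 12.9 CPM in Col-0, and its fold of 20.6 was the largest in the group, followed by 12.9 for ESM1.

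Beside GPT2, the sugar genes comprised ERD6 and SFP1, both sugar transporters of the ERD6-like family, and MIOX2, which oxidises myo-inositol to glucuronic acid, a precursor of wall sugars. ERD6 had 137 and 135 CPM in *janus-2*, against 10.5 and 9.5 CPM in Col-0. SFP1 had 92.2 and 90.3 CPM in *janus-2*, against 6.78 and 5.09 CPM in Col-0. MIOX2 had 554 and 555 CPM in *janus-2*, against 67.2 and 68.4 CPM in Col-0, the fold nearest to the limit of the rule in this group (8.17).

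Among ATP-binding cassette (ABC) transporters, ABCC3, a vacuolar pump of glutathione conjugates and chlorophyll breakdown products, had 608 and 596 CPM in *janus-2*, against 61 and 61.2 CPM in Col-0. ABCG22, known from stomatal control of water loss, had 369.9 and 371 CPM in *janus-2*, against 43 and 44.5 CPM in Col-0. ABCB14, a malate importer of guard cells, had 11.6 and 11.5 CPM in *janus-2*, against 0.160 and 0.183 CPM in Col-0, and ABCB21, an auxin transporter, had 41.5 and 43.4 CPM in *janus-2*, against 5.25 and 4.83 CPM in Col-0. ABCB14 had the largest fold of the 4 (43) and ABCB21 the smallest (8.27). DTX1, a multidrug and toxin efflux (MATE) carrier, had 5.33 and 5.77 CPM in *janus-2*, against 0 and 0.0762 CPM in Col-0.

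A further 5 raised genes transport nitrate and other anions. SLAH3 and SLAH2, anion channels of the SLAC1 family that conduct nitrate, had 175 and 173 CPM in *janus-2*, against 14.6 and 15.2 CPM in Col-0 and 37.7 and 38.3 CPM in *janus-2*, against 0.958 and 1.28 CPM in Col-0. CLC-B, a chloride channel family protein of the vacuolar membrane, had 25.6 and 26.3 CPM in *janus-2*, against 1.92 and 2.15 CPM in Col-0. NRT1.8, which withdraws nitrate from the xylem, had 53.9 and 53.3 CPM in *janus-2*, against 3.76 and 3.69 CPM in Col-0. NAXT1, a nitrate excretion transporter, had 18.7 and 18.8 CPM in *janus-2*, against 2.08 and 2.32 CPM in Col-0. SLAH2 had the largest fold of the 5 (31.2) and NAXT1 the smallest (8.21). CLT3, which carries thiols across the plastid envelope, had 70.6 and 71.3 CPM in *janus-2*, against 8.16 and 8.51 CPM in Col-0. KAT3, a regulatory subunit of potassium channels, had 6.2 and 6.07 CPM in *janus-2*, against 0.994 and 0.351 CPM in Col-0, with a wide spread between the 2 Col-0 libraries. NAS1, which makes the metal chelator nicotianamine, had 5.62 and 5.75 CPM in *janus-2*, against 0.0710 and 0.0457 CPM in Col-0.

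Transcription factors included 6 of the ERF and DREB family, which bind GCC-box or DRE elements. Rap2.6L had 151 and 152 CPM in *janus-2*, against 9.95 and 9.29 CPM in Col-0. ESE3 (ethylene and salt inducible 3) had 74.6 and 75.8 CPM in *janus-2*, against 4.19 and 3.63 CPM in Col-0, and DREB26 had 65.2 and 59.9 CPM in *janus-2*, against 2.57 and 2.36 CPM in Col-0. ERF71 (HRE2), known from hypoxia, had 9.44 and 9.07 CPM in *janus-2*, against 0.213 and 0.366 CPM in Col-0. ERF104 and ERF105 (AT5G51190), which belong to the same subgroup of ERF factors, had 17 and 16.5 CPM in *janus-2*, against 1.81 and 1.66 CPM in Col-0 and 24.6 and 26.4 CPM in *janus-2*, against 1.77 and 2.09 CPM in Col-0. The 2 largest folds of the family were those of DREB26 (24.4) and ERF71 (24).

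Of the other transcription factors, MYB90 (PAP2), an activator of anthocyanin synthesis, had 12.7 and 12.2 CPM in *janus-2*, against 0.302 and 0.412 CPM in Col-0 and the largest fold (27.5). CGA1, a cytokinin-responsive GATA factor that promotes chloroplast development, had 66.4 and 67.7 CPM in *janus-2*, against 2.61 and 2.65 CPM in Col-0. NAC044, known from the arrest of the cell cycle after DNA damage, had 15 and 14.2 CPM in *janus-2*, against 0.515 and 0.518 CPM in Col-0. WRKY57 and WRKY25 had 61 and 58.5 CPM in *janus-2*, against 4.61 and 4.51 CPM in Col-0 and 22.3 and 23.8 CPM in *janus-2*, against 1.72 and 2.2 CPM in Col-0. MYB59 had 54.8 and 52.9 CPM in *janus-2*, against 5.16 and 5.09 CPM in Col-0. HBI1 and PIF7 are basic helix-loop-helix factors of growth and shade responses. HBI1 had 25.3 and 26.1 CPM in *janus-2*, against 1.79 and 2.42 CPM in Col-0, and PIF7 had 21.5 and 24.4 CPM in *janus-2*, against 2.41 and 2.39 CPM in Col-0. GL3, the basic helix-loop-helix factor of trichome formation, had 6.46 and 6.63 CPM in *janus-2*, against 0.550 and 0.229 CPM in Col-0. AHL17 (AT5G49700), an AT-hook protein, had 9.96 and 10.4 CPM in *janus-2*, against 1.12 and 1.16 CPM in Col-0, with a fold near the limit of the rule (8.32).

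Defence receptors and signalling genes formed a group of 7. The receptor-like proteins RLP33 and RLP19 had 22.3 and 20 CPM in *janus-2*, against 2.18 and 2.65 CPM in Col-0 and 6.62 and 6.87 CPM in *janus-2*, against 0.781 and 0.564 CPM in Col-0. LecRK-I.7 (AT5G60270), a lectin receptor kinase, had 11.9 and 12.7 CPM in *janus-2*, against 0.515 and 0.427 CPM in Col-0. HIR2 (hypersensitive induced reaction 2) had 22.2 and 22.5 CPM in *janus-2*, against 1.47 and 1.91 CPM in Col-0, and the protein kinase gene APK2A had 15.4 and 15.2 CPM in *janus-2*, against 1.19 and 1.95 CPM in Col-0. CMPG1, a U-box protein, had 10.6 and 10.2 CPM in *janus-2*, against 1.12 and 0.976 CPM in Col-0. Apart from AZI1, the folds of this group lay between 8.45 and 21.7.

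Hormone genes came from several pathways. AOC3 and AOC2, allene oxide cyclases of jasmonate synthesis, had 55.7 and 54.5 CPM in *janus-2*, against 5.78 and 6.04 CPM in Col-0 and 21.4 and 22.6 CPM in *janus-2*, against 2.52 and 2.68 CPM in Col-0. IPT3, an isopentenyltransferase of cytokinin synthesis, had 6.9 and 5.48 CPM in *janus-2*, against 0.266 and 0.534 CPM in Col-0. Its ratio of *janus-2* replicate 1 to replicate 2 was the widest above 1 in the set, at 1.26. AHP4, a histidine phosphotransfer protein related to those of the cytokinin pathway, had 5.44 and 5.31 CPM in *janus-2*, against 0.213 and 0.213 CPM in Col-0. AO1, an aldehyde oxidase, had 15.2 and 15.5 CPM in *janus-2*, against 1.76 and 1.57 CPM in Col-0. The β-glucosidase genes BGLU45, which acts on monolignol glucosides, and BGLU47 had 59.9 and 55.7 CPM in *janus-2*, against 3.76 and 3.68 CPM in Col-0 and 6.1 and 6.99 CPM in *janus-2*, against 0.603 and 0.793 CPM in Col-0.

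The last 6 raised genes with a name stood outside the groups. SQE6, a squalene epoxidase-like gene, had 32.9 and 33.4 CPM in *janus-2*, against 0.798 and 1.25 CPM in Col-0. CEP1, a cysteine endopeptidase known from programmed cell death, among other places in the tapetum, had 64.4 and 60.6 CPM in *janus-2*, against 5.41 and 4.53 CPM in Col-0, whereas all 15 tapetum marker genes were lower in *janus-2*. PYD4 had 42.3 and 41.3 CPM in *janus-2*, against 4.67 and 3.2 CPM in Col-0. TET9, a tetraspanin, had 17.5 and 16.8 CPM in *janus-2*, against 1.83 and 1.65 CPM in Col-0. The cytochrome P450 gene CYP81G1 had 7.27 and 6.29 CPM in *janus-2*, against 0.355 and 0.244 CPM in Col-0, and the serine carboxypeptidase-like gene scpl33 had 20.4 and 19 CPM in *janus-2*, against 0.710 and 0.930 CPM in Col-0.

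Genes that the rule did not choose could be tested. Of 275 genes outside the raised set on 16 pathway lists, 217 were tested. By edgeR's quasi-likelihood test, 99 of these (45.6%) were higher in *janus-2* and 47 (21.7%) were lower, against 18.5% and 27.2% of all tested genes. Over all tested genes the median change was -0.02 on the log2 scale. The lists hold families of the raised genes and were drawn up with earlier results of these data known, so that these shares are a description. The direction differed between lists.

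**Figure D3:**
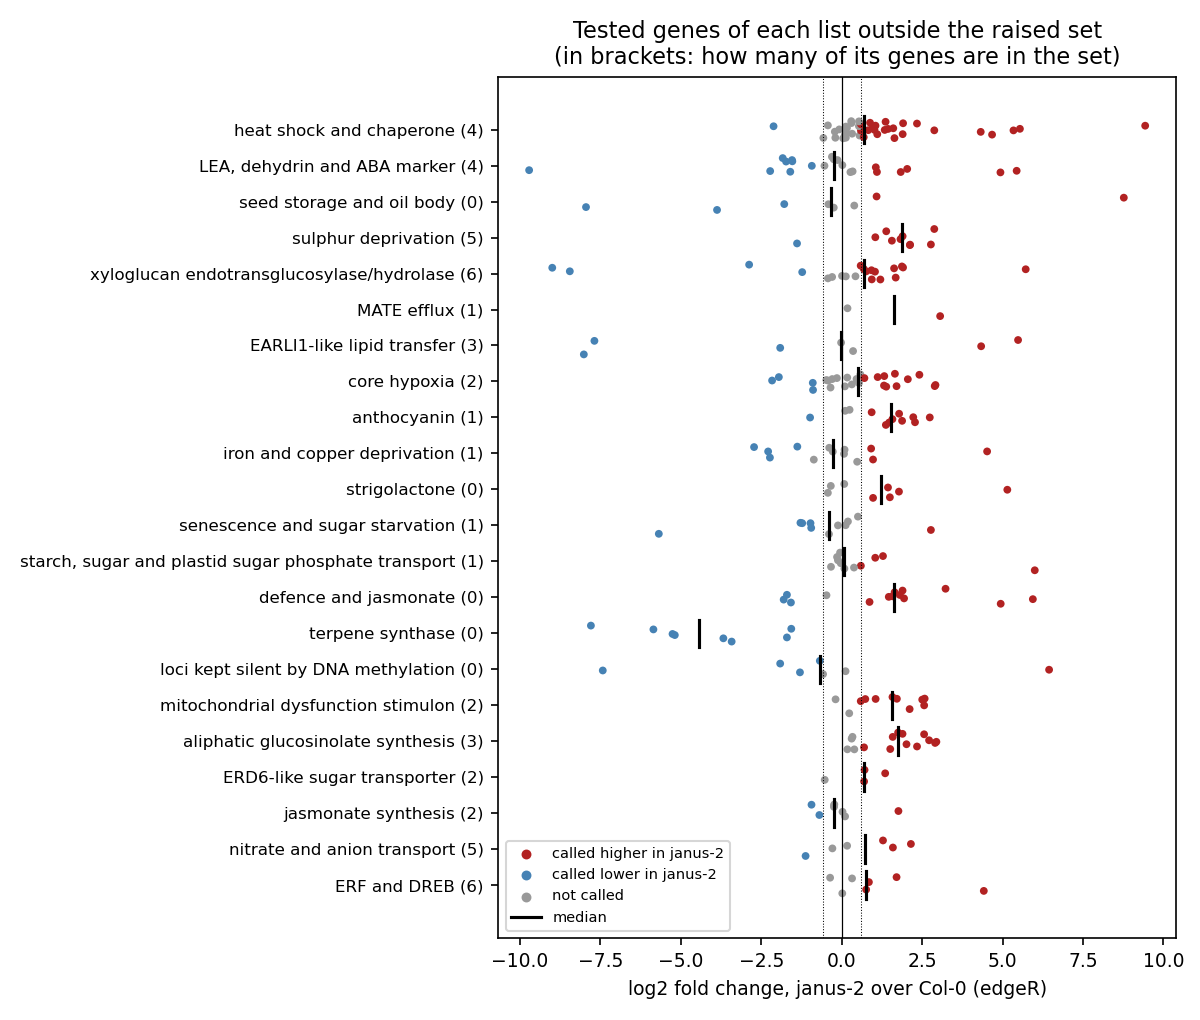
Log2 fold change of *janus-2* over Col-0 (edgeR) for each tested gene outside the raised set on 22 lists, with the number of raised genes of the list in brackets, the median as a black bar and the 1.5-fold limits as dotted lines. The sulphur deprivation, anthocyanin, glucosinolate and mitochondrial lists lie to the right, with medians between 1.53 and 1.86, and all 8 terpene synthases lie to the left.

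In the sulphur deprivation list, 9 of the 10 tested genes outside the set rose and 1 fell, with a median log2 fold change of 1.86. LSU3 had 30.9 and 30.1 CPM in *janus-2*, against 4.4 and 4.01 CPM in Col-0, which on the log2 scale is a change of 2.88 (standard error 0.11), and AT5G26220 had 96.8 and 95.5 CPM in *janus-2*, against 14.2 and 14.2 CPM in Col-0, which on the log2 scale is a change of 2.77 (standard error 0.06). APR2 and APR3, which reduce activated sulphate, had 217 and 225 CPM in *janus-2*, against 51.8 and 50.5 CPM in Col-0 and 276 and 268 CPM in *janus-2*, against 62 and 64.5 CPM in Col-0. The exception was LSU4, which fell to 3.66 and 3.36 CPM in *janus-2*, against 9.0 and 9.59 CPM in Col-0.

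Aliphatic glucosinolate synthesis is a list that was drawn up once the raised genes were known. Of its 15 tested genes outside the set, 11 rose and 0 fell (median 1.75). CYP79F2, the neighbour and paralogue of CYP79F1, had 5.27 and 4.87 CPM in *janus-2*, against 0.727 and 0.610 CPM in Col-0, which on the log2 scale is a change of 2.94 (standard error 0.26). MAM1, which condenses the methionine-derived chain with acetyl-CoA, had 74.2 and 75.1 CPM in *janus-2*, against 10.6 and 9.65 CPM in Col-0, and SOT17, which adds the sulphate group, had 28 and 26.6 CPM in *janus-2*, against 4.24 and 4.16 CPM in Col-0. Their log2 fold changes were 2.90 (standard error 0.07) and 2.72 (standard error 0.11).

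Heat shock and chaperone genes outside the set rose in 23 of 41 cases and fell in 1 (median 0.68). ATHSP22.0, a small heat shock protein, had 88 and 84 counts in *janus-2* and 0 in both Col-0 libraries, which makes it at least 28.4-fold higher against 3 counts per library. APX2, a heat-induced ascorbate peroxidase, had 79 and 71 counts in *janus-2*, against 1 and 2 in Col-0, a ratio of 49.8 with a 95% counting interval of 16.7 to 244. HSP23.6-MITO, a mitochondrial small heat shock protein, had 3.29 and 3.44 CPM in *janus-2*, against 0.0710 and 0.0915 CPM in Col-0, which on the log2 scale is a change of 5.34 (standard error 0.53). These 3 genes were absent from the raised set because their *janus-2* levels stayed below 5 CPM. ERD2 was the gene of this list that fell.

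The mitochondrial dysfunction stimulon, genes that respond together when mitochondria are impaired and again a list drawn up once the raised genes were known, rose in 9 of its 11 tested genes outside the set, and 0 fell (median 1.58). BCS1 had 41.7 and 40 CPM in *janus-2*, against 7.11 and 6.72 CPM in Col-0. NAC13, the transcription factor that drives many of these genes, had 112 and 113 CPM in *janus-2*, against 19.2 and 19.3 CPM in Col-0, and DIC2, a dicarboxylate carrier, had 24.4 and 24.2 CPM in *janus-2*, against 4.21 and 4.44 CPM in Col-0. Their log2 fold changes were 2.58 (standard error 0.09), 2.56 (standard error 0.05) and 2.50 (standard error 0.11).

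Anthocyanin genes outside the set rose in 9 of 12 cases and 1 fell (median 1.53). AT5MAT, an anthocyanin malonyltransferase, had 13.1 and 12.8 CPM in *janus-2*, against 2.08 and 1.86 CPM in Col-0. UF3GT, a glycosyltransferase, had 11.9 and 12.5 CPM in *janus-2*, against 2.4 and 2.67 CPM in Col-0, and AT4G14090 had 17.7 and 16.2 CPM in *janus-2*, against 3.69 and 3.64 CPM in Col-0. The levels of the other activator, PAP1, were 14.8 and 16.5 CPM in *janus-2*, against 4.45 and 4.15 CPM in Col-0, which on the log2 scale is a change of 1.88 (standard error 0.13). The summed level of the whole list ran the other way, at 683 and 687 CPM in *janus-2* against 900.0 and 880.3 CPM in Col-0.

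Xyloglucan endotransglucosylase/hydrolases outside the set rose in 12 of 21 cases and fell in 4 (median 0.69). XTH16 had 513 and 512 CPM in *janus-2*, against 138 and 138 CPM in Col-0, and XTH19 had 41.5 and 43 CPM in *janus-2*, against 11.8 and 11.5 CPM in Col-0. XTH3 fell to 0.834 and 0.746 CPM in *janus-2*, against 285 and 276 CPM in Col-0. XTH1 had 0 counts in both *janus-2* libraries, against 56 and 72 counts in Col-0, which makes it at least 21.3-fold lower. XTH14 had 26 and 39 counts in *janus-2*, against 0 and 1 in Col-0, a ratio of 64.7 (counting interval 11.2 to 2593).

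Defence and jasmonate genes rose in 10 of 14 tested cases and fell in 3, although none was in the raised set. The summed level of the list ran the other way, at 1173 and 1211 CPM in *janus-2* against 2886 and 2859 CPM in Col-0. UPI, a proteinase inhibitor-like gene, had 4.75 and 4.85 CPM in *janus-2*, against 0.160 and 0.152 CPM in Col-0. AT5G43570, the locus before it by number, had 128 and 131 counts in *janus-2*, against 1 and 3 in Col-0, a ratio of 64.4 (counting interval 24.9 to 238). PR1, the salicylic acid marker, had 1.09 and 0.763 CPM in *janus-2*, against 0.0710 and 0.122 CPM in Col-0, which on the log2 scale is a change of 3.23 (standard error 0.65) at under 1.5 CPM. Jasmonate synthesis, a list drawn up afterwards, rose in 1 of 8 tested genes outside the set and fell in 2 (median -0.23).

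The desiccation list was divided. Of its 21 tested genes outside the set, 6 rose and 8 fell (median -0.25). GEA6 and XERO1, a seed protein and a dehydrin, rose, both at few counts. XERO1 had 72 and 57 counts in *janus-2*, against 1 and 3 in Col-0, a ratio of 32.1 (counting interval 12.2 to 120), and GEA6 had 40 and 14, against 1 and 0. The gene with the symbol LEA (AT2G21490) fell to 0.0472 and 0.119 CPM in *janus-2*, against 73 and 69.2 CPM in Col-0. COR15A, the cold-induced chloroplast protein, fell to 48.5 and 48.6 CPM, against 226 and 232 CPM in Col-0.

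Hypoxia genes outside the set rose in 11 of 26 cases and fell in 4 (median 0.50), with ADH1, alcohol dehydrogenase, at 29.9 and 27 CPM in *janus-2*, against 5.91 and 4.94 CPM in Col-0, which on the log2 scale is a change of 2.41 (standard error 0.11). CML38 and SRO5 had 6.21 and 7.04 CPM in *janus-2*, against 0.869 and 0.900 CPM in Col-0 and 6.01 and 5.19 CPM in *janus-2*, against 0.674 and 0.839 CPM in Col-0. Strigolactone genes had no member in the set, and 5 of 8 rose and 0 fell (median 1.21). CYP711A1 (MAX1) had 54.2 and 55 CPM in *janus-2*, against 16.3 and 15.9 CPM in Col-0, and CCD8 had 7.86 and 8.45 CPM in *janus-2*, against 2.82 and 3.0 CPM in Col-0. CCD7 had 48 and 66 counts in *janus-2*, against 2 and 1 in Col-0, a ratio of 37.8 (counting interval 12.6 to 186).

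Among starch and sugar genes outside the set, 4 of 11 rose and 0 fell (median 0.08). GBSS1, the granule-bound starch synthase, had 283 and 287 CPM in *janus-2*, against 117 and 119 CPM in Col-0, and APL3, a large subunit of ADP-glucose pyrophosphorylase, had 85 and 86.5 CPM in *janus-2*, against 41.6 and 42.5 CPM in Col-0. cwINV6 had 27 and 52 counts in *janus-2*, against 1 and 0 in Col-0, a ratio of 78.6 (counting interval 13.7 to 3144). Of the ERD6-like sugar transporters, 3 of 4 outside the set rose and 0 fell, among them ESL1 with 45.2 and 44.8 CPM in *janus-2*, against 18.9 and 16.9 CPM in Col-0. Nitrate and anion transport genes rose in 3 of 6 cases and fell in 1, and NRT1.1, the nitrate transporter and sensor, had 44.2 and 46.7 CPM in *janus-2*, against 10.6 and 10.1 CPM in Col-0, which on the log2 scale is a change of 2.15 (standard error 0.08). ERF and DREB genes of the same subgroups as the raised ones rose in 4 of 7 cases and 0 fell, with RAP2.6 at 4.8 and 5.0 CPM in *janus-2*, against 0.284 and 0.183 CPM in Col-0. These 3 lists were drawn up once the raised genes were known.

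Several lists held more genes that fell than genes that rose outside the set. The same was true of all tested genes, with 27.2% lower and 18.5% higher. The iron and copper list lay near those shares, with 30.8% lower and 23.1% higher. The EARLI1-like and seed storage lists held only 7 and 8 tested genes. Senescence and sugar starvation genes outside the set rose in 1 of 11 cases, SAG13 with a log2 change of 2.77 (standard error 0.06), and fell in 5, led by SAG12, a senescence marker, with 2.08 and 2.95 CPM in *janus-2*, against 128 and 132 CPM in Col-0. Iron and copper deprivation genes rose in 3 of 13 cases and fell in 4. FRO4, a metal reductase, had 3.43 and 3.73 CPM in *janus-2*, against 0.124 and 0.183 CPM in Col-0, while FRO1 and IRT1, the main iron importer of roots, fell, IRT1 to 3.08 and 3.34 CPM in *janus-2* against 15.8 and 15.8 CPM in Col-0. EARLI1-like lipid transfer genes outside the set rose in 2 of 7 cases and fell in 3. AT4G12530 fell to 0.0315 and 0.0339 CPM in *janus-2*, against 8.57 and 9.53 CPM in Col-0. This list held 3 raised genes, AZI1, AT1G62510 and AT2G45180. With them the list summed to 1218 and 1256 CPM in *janus-2*, against 394 and 389 CPM in Col-0. Without them it summed to 211 and 213 CPM in *janus-2*, against 319 and 318 CPM in Col-0. The MATE efflux list was matched by name and held 3 genes in all, a small part of the family. Of its 2 tested genes outside the set, 1 rose, AT5G52050, with 2.34 and 2.27 CPM in *janus-2*, against 0.195 and 0.351 CPM in Col-0. The next lists had no gene in the raised set. Seed storage and oil body genes rose in 2 of 8 cases and fell in 3, and loci kept silent by DNA methylation rose in 1 of 7 cases, AT1G59930, and fell in 4. All 8 tested terpene synthases fell (median -4.43), TPS10 to 2.04 and 2.09 CPM in *janus-2* against 119.7 and 122 CPM in Col-0.

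The raised genes were spread over the 5 chromosomes. They numbered 38, 30, 29, 24 and 36 on chromosomes 1 to 5, which is 24.1%, 19.0%, 18.4%, 15.2% and 22.8% of the 158, against 26.0%, 15.2%, 19.7%, 15.2% and 23.0% of all tested genes. In the order of the annotation, 157 had a place, since AT4G05370 was not matched. Of these, 156 are protein-coding and 1, AT1G67105, is a non-coding RNA. In 4 pairs, 8 genes in all, the raised genes stood next to each other or had 1 gene between them.

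On chromosome 1, GPT2 lies next to BGLU45, and BGLU46 follows with 10.5 and 11.7 CPM in *janus-2*, against 3.07 and 4.35 CPM in Col-0, which on the log2 scale is a change of 1.58 (standard error 0.17) (adjusted p = 4.3e-48 by edgeR). On the other side, AT1G61795 fell to 2.61 and 1.97 CPM in *janus-2*, against 3.69 and 3.81 CPM in Col-0. On chromosome 2, DTX1 lies next to AT2G04050, which had 45.9 and 50.5 CPM in *janus-2*, against 1.26 and 1.07 CPM in Col-0, while the gene before this pair, AT2G04039, fell to 16.3 and 19.5 CPM in *janus-2* against 38.2 and 39 CPM in Col-0. On chromosome 3, AOC2 and AOC3 adjoin, and their paralogue AOC1 before them rose less, with 11.6 and 12.3 CPM in *janus-2*, against 3.34 and 3.74 CPM in Col-0, which on the log2 scale is a change of 1.76 (standard error 0.14) (adjusted p = 7.2e-61 by edgeR). AT3G25795 was also higher, at 1.46 and 1.12 CPM in *janus-2*, against 0.763 and 0.732 CPM in Col-0. The last pair, AT3G44970 and XTH31, has AT3G44980 between them at 0.204 and 0.0170 CPM in *janus-2*, against 0 and 0 CPM in Col-0, and AT3G44960 before it fell to 2.49 and 2.63 CPM in *janus-2*, against 4.84 and 4.45 CPM in Col-0. AT4G05370 and AT4G05380 are consecutive by number and both raised, with 10.6 and 9.09 CPM in *janus-2*, against 0.727 and 0.442 CPM in Col-0 and 12.2 and 11.2 CPM in *janus-2*, against 0.444 and 0.518 CPM in Col-0, but the place of the first was not in the annotation used.

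**Figure D4:**
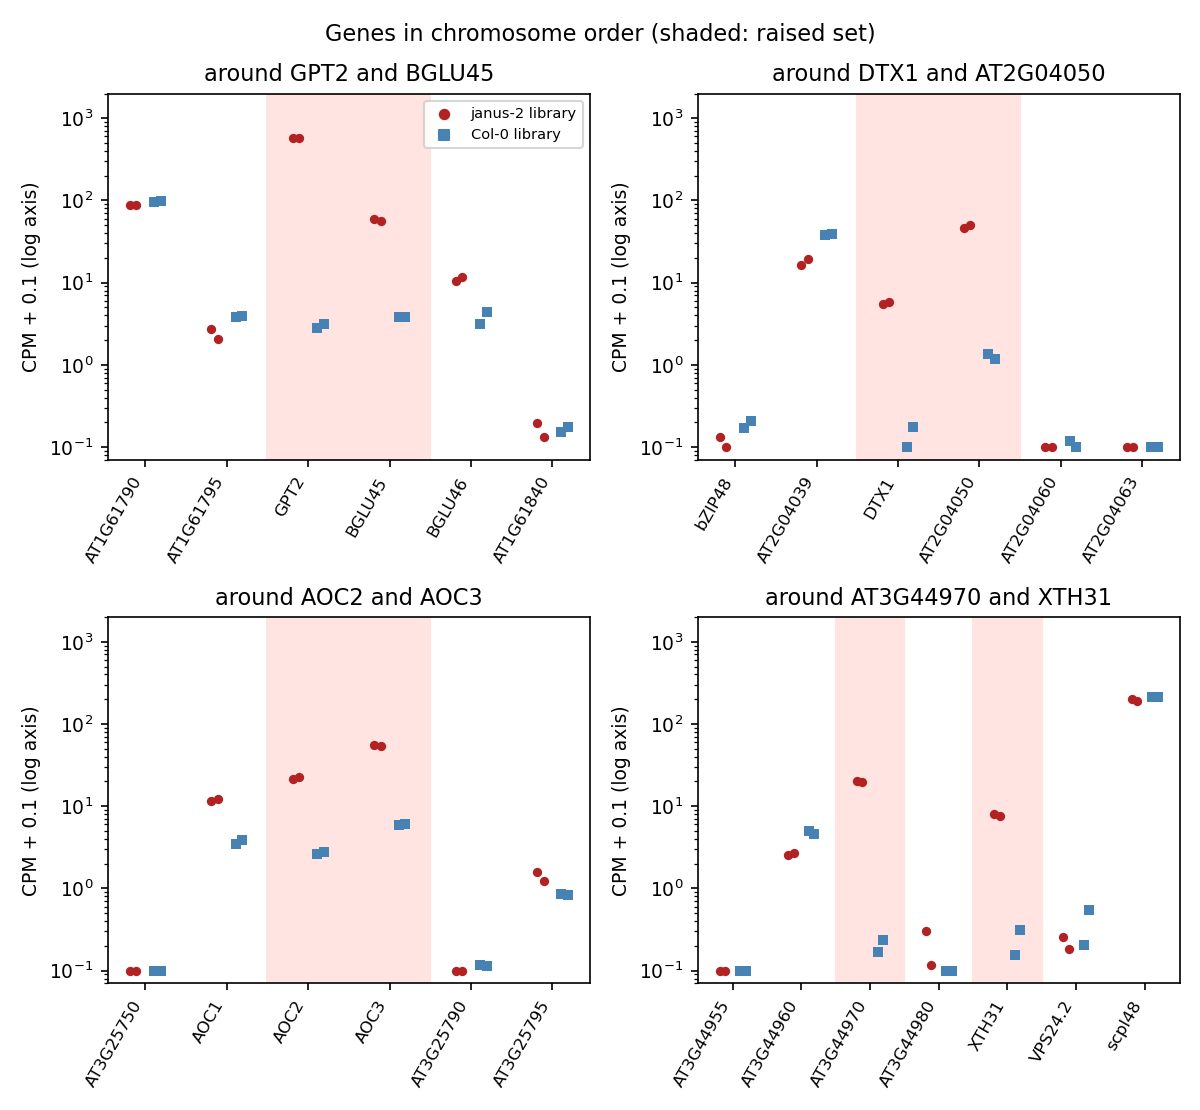
Level in each library, as CPM + 0.1 on a log axis, of the 4 pairs of raised genes (shaded) and the genes around them in chromosome order, with *janus-2* as red circles to the left and Col-0 as blue squares to the right at each gene. BGLU46 and AOC1 beside their raised paralogues are higher in *janus-2*, while AT1G61795, AT2G04039 and AT3G44960 are lower.

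Over the whole set, the nearest tested gene on each side that was not itself raised gave 306 neighbours. By edgeR's quasi-likelihood test 70 (22.9%) were higher in *janus-2* and 71 (23.2%) were lower, against 18.0% and 27.3% of all 22832 tested genes outside the set. Their median log2 fold change was 0.08. For 9 raised genes both neighbours were higher, a count for which no matching share over other genes was drawn up. Of the 306, 21 carried a family name in common with a raised gene beside them, and 12 of these 21 were higher and 4 were lower. Among the other 285, 58 (20.4%) were higher. The match was by name alone, so the 65 raised genes with an identifier only could have none. The 285 therefore still hold relatives without a shared name, such as ESL1 beside ERD6. The 21 neighbours with a shared name were picked out after the values were seen, so no test is given.

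Besides BGLU46, MSRB6 had 0.912 and 1.0 CPM in *janus-2*, against 0.0177 and 0 CPM in Col-0 and MSRB4 had 1.65 and 1.81 CPM in *janus-2*, against 0.284 and 0.183 CPM in Col-0, on the 2 sides of MSRB5. RLP32, beside RLP33, had 83.6 and 84 CPM in *janus-2*, against 17.1 and 16 CPM in Col-0, which on the log2 scale is a change of 2.36 (standard error 0.06). NIT1, beside NIT2, had 1233 and 1181 CPM in *janus-2*, against 434 and 426 CPM in Col-0, and ABCC6, beside ABCC3, had 1.84 and 1.71 CPM in *janus-2*, against 0.550 and 0.412 CPM in Col-0. EARLI1, the gene next to AZI1, is of the same protein family but was not among the 21, since it shares no name with AZI1, and it had 1.2 and 1.17 CPM in *janus-2*, against 0.0355 and 0.0762 CPM in Col-0. The opposite was seen for AOX1B, beside AOX1A, which fell to 0.0944 and 0.0678 CPM in *janus-2* against 7.74 and 9.41 CPM in Col-0, which on the log2 scale is a change of -6.67 (standard error 0.49). It also held for BGLU29 beside BGLU28, with 0.362 and 0.170 CPM in *janus-2*, against 0.852 and 0.717 CPM in Col-0, and for XTH24, on 1 side of XTH18, with 117 and 119 CPM in *janus-2*, against 279.9 and 279.9 CPM in Col-0, while XTH19 on the other side was higher. LTI78 (RD29A), the neighbour of LTI65, was not called, with 50.6 and 48.7 CPM in *janus-2*, against 61 and 62.9 CPM in Col-0. SFP2, beside SFP1, was not called either, with 20.8 and 20.5 CPM in *janus-2*, against 30.2 and 30 CPM in Col-0.

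**Figure D5:**
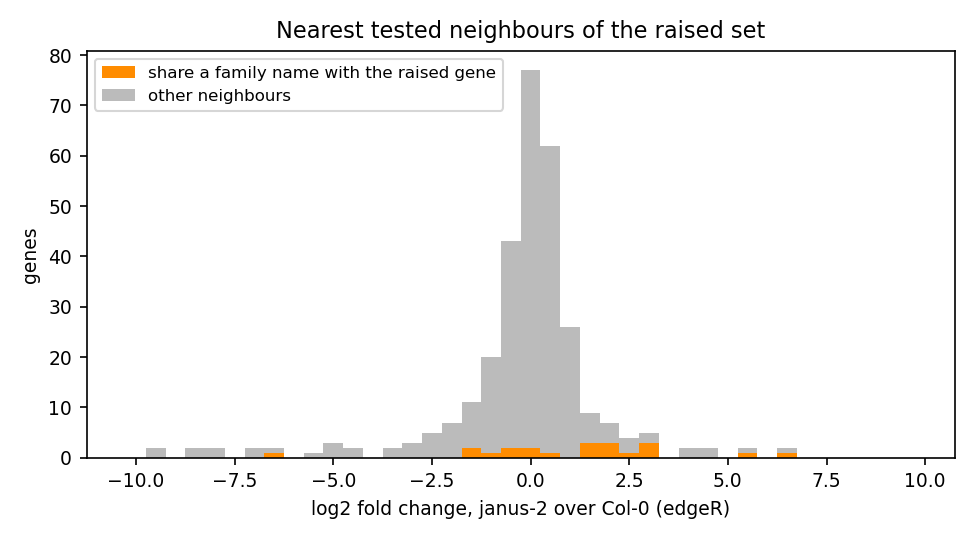
Number of nearest tested neighbours of the raised genes by log2 fold change of *janus-2* over Col-0 (edgeR, bins of 0.5), stacked, with the 21 that share a family name with a raised gene in orange and the other 285 in grey. Most neighbours lie near 0 (median 0.08), and 12 of the orange genes lie among those called higher.

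Reads of close paralogues such as AOC1 to AOC3, LSU1 to LSU4 or the MSRB genes could be divided unevenly between them by the counting. The annotated span of 23 raised genes overlapped another counted gene, and whether the counting used strand was not given in the sources used here. Of 20 neighbours whose span overlapped the raised gene, 2 were called higher in *janus-2*, against 22.9% of all neighbours and 18.0% of tested genes outside the set.

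The paper reported a broad fall of miRNA accumulation in *janus-2* from small RNA sequencing, and lower levels of several miRNAs by RT-qPCR. Its methods name the total of perfectly aligned reads, and TMM, for scaling. Here the counts were scaled within the miRNA counts of each library. A fall shared by most miRNAs would be scaled away, so the numbers of higher and lower miRNAs below do not measure it. Small RNA libraries, which the rule did not use, gave a measure beside 2 of the gene lists. miR395, which targets sulphate assimilation genes and accumulates under low sulphate, has 6 entries. All 6 were higher in *janus-2* by edgeR's quasi-likelihood test. Of 304 tested miRNAs, 55 (18.1%) were higher by this test and 43 (14.1%) were lower. miR395a had 1449 and 1580 counts in *janus-2*, against 84 and 28 in Col-0, a log2 change of 5.02 (standard error 0.51, adjusted p = 0.00017). miR395b had 763 and 821 counts in *janus-2*, against 75 and 36 in Col-0, a log2 change of 4.09 (standard error 0.44, adjusted p = 0.00017). The other 4 entries carried the counts of these 2 to within 1 read, so the 6 are not independent. miR398, which targets copper enzymes and accumulates under low copper, was higher in 5 of 6 entries. miR398b-3p had 49756 and 53472 counts in *janus-2*, against 8734 and 6781 in Col-0, a log2 change of 2.98 (standard error 0.33, adjusted p = 6.5e-06). The counts of miR398c-3p were the same as those of miR398b-3p. Those of miR398c-5p matched miR398b-5p to within 1 read, so the called entries are not independent here either. miR398a-5p was the entry not called, with 17 and 11 counts in *janus-2*, against 6 and 10 in Col-0. The list of iron and copper genes held 1 raised gene, NAS1, and of its 13 tested genes outside the set 3 were higher and 4 were lower in *janus-2* (median log2 fold change -0.28), against 18.5% and 27.2% of all tested genes. The higher ones were FRO4, given above, SPL7, the copper-responsive transcription factor, at 114 and 113 CPM in *janus-2*, against 58 and 59.1 CPM in Col-0, and FSD1, an iron superoxide dismutase, at 147 and 147 CPM in *janus-2*, against 79.1 and 78.4 CPM in Col-0. SPL7 and FSD1 had log2 fold changes of 0.97 (standard error 0.04) and 0.92 (standard error 0.04).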

How the data were processed

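mRNA and small RNA from inflorescences of *janus-2* and Col-0 were compared, with 2 replicates per genotype and assay. The authors deposited raw counts, 1 table per library in the layout of htseq-count, 28775 genes for mRNA and 427 mature miRNAs for small RNA. The submitters' processing notes name TAIR10, Bowtie and HTSeq with no roles or versions. The read processing behind these tables can move counts between paralogues and overlapping genes, and whether strand was used is not given in the sources used here. The study calls the replicates biological, the labels only number them, and the p-values measure the spread between these samples.

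Reads that no gene received were not used. Reads outside genes were 1.11% to 1.13% and ambiguous reads 2.15% to 2.34% of all reads in the mRNA tables. In the small RNA tables they were 96.4% to 97.1% and 0.0652% to 0.0825% of aligned reads. Gene counts were 56360882 to 65578130 per library and miRNA counts 1950664 to 2160372. The study used Ballgown, whose input was not analysed here. Counts were fitted with edgeR 4.0.16 (filterByExpr, TMM, glmQLFit, glmQLFTest) in R 4.3.3, all 4 libraries of an assay together, with Benjamini-Hochberg adjustment. A gene counted as called when its adjusted p was no larger than 0.05 and its change at least 1.5-fold, a miRNA by the p alone. Log2 fold changes are edgeR's, standard errors those of DESeq2 1.42.0. The common coefficient of variation between mRNA replicates was 2.26%. The fits were tested on simulated data. A floor of 3 counts per library was used, and ratios at 1 to 3 counts carry exact 95% binomial intervals, which cover counting error only.

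Symbols, synonyms and gene order came from RefSeq (TAIR10.1), which matched 28009 of the 28775 genes. Its coordinates were used for gene order and for the overlap of spans, and no sequences were taken from it. The members and gene lists were chosen with earlier results of these data known. The rule for names took the 10 largest folds, the 10 genes with most *janus-2* reads, members of pathway lists, runs and families, the genes next to each limit, and per list up to 3 called genes with the largest change. The other annotated members, neighbours that share a family name, and further list genes were named after their values were seen, and the lists of glucosinolate, mitochondrial, jasmonate, sugar transporter, nitrate and ERF genes were written once the members were known. Alternatives changed the limits of the rule, the scaling, the tool, the filter, the fold threshold, the replicate block and the libraries, each left out in turn. Figures were drawn with matplotlib 3.10.9.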

Additional observations from a re-analysis of the deposited data

How the results depend on the processing

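The size of the raised set followed its limits. A fold of 4 gave 398 genes, a fold of 16 gave 63 and a pseudocount of 1 CPM gave 101, whereas TMM scaling and DESeq2 size factors each gave the same 158. With a library left out the set held 154 to 163 genes, and 144 of the 158 stayed in it whichever of the 4 libraries was left out.

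Without a fold threshold, edgeR called 9324 genes higher and 9778 lower, and 143 neighbours of raised genes higher. With a library left out, the counts were 4207 to 4236 genes higher, 6018 to 6268 lower, 64 to 71 neighbours higher, 97 to 102 list genes higher and 47 to 51 lower, and every other alternative kept these counts within 1.5 times. The 3 list genes with the largest change on each list were called in the same direction under every alternative that tested them. For miRNAs, DESeq2 called 36 higher in place of 55, and leaving out a library gave 36 (without *janus-2* replicate 1) to 71 (without Col-0 replicate 2). The 11 called entries of miR395 and miR398, many of which carried the same counts, were higher under all 10 alternatives.

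The labels number the replicates alike in both genotypes, but nothing says that a number marks a shared batch, and the deviations of same-numbered mRNA libraries correlated at -0.01. With a replicate block edgeR called 4224 genes higher and 6180 lower, 69 neighbours higher, 99 list genes higher and 47 lower, and 49 miRNAs higher. In small RNA the correlation was -0.15, and a block with the numbers crossed, chosen after seeing the data, gave 58 miRNAs higher. With 2 libraries per genotype, the tests rest on few samples, and those of mRNA also on a small spread. Promoter and protein features of the raised genes, listed among the planned analyses, were not run, since no sequences were used here.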
